A study of Rattus norvegicus with 4 samples.

Results

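The ligands and receptors of the GDNF family were followed in cultured neonatal rat ovaries, with 8 genes measured by 14 probe sets of the array. The genes were the ligands Gdnf and Nrtn, the co-receptors Gfra1, Gfra2, Gfra3 and Gfra4, the receptor tyrosine kinase Ret and the adhesion molecule Ncam1. A probe set was taken where the platform annotation gave it exactly 1 of these symbols, out of 31042 probe sets in all, of which 20826 carried a single symbol for 14217 genes. Whole ovaries of 4-day-old rat pups were kept for 2 days in organ culture, and pools of 6 to 10 ovaries gave 4 RNA samples, each on its own Affymetrix array. The 2 GDNF samples came from ovaries cultured with glial cell line-derived neurotrophic factor, at a dose not given in the sources used here. Their titles and descriptions name GDNF, while the treatment protocol text filed with all 4 samples is that of the controls, so the treatment rests on the titles and descriptions. The 2 control samples came from ovaries cultured with no added factor. Both groups were grown in the same serum-free DMEM-Ham's F-12 with BSA, albumax, insulin (200 ng/ml), ascorbic acid and transferrin, per the labels. The pool is the sample, so differences between single animals cannot be seen. Whether pools of a group were of separate litters or cultures is not stated in the labels, so the p-values below cover the spread of these samples alone, part of which may be technical.

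GDNF family ligands are distant relatives of TGF-beta that act through a receptor made of separate chains. The ligand is first bound by a co-receptor anchored in the outer membrane by a lipid, and the pair then engages Ret, whose kinase carries the signal into the cell. Each ligand has a preferred co-receptor: Gfra1 for GDNF, Gfra2 for neurturin, Gfra3 for artemin and Gfra4 for persephin. GDNF with Gfra1 can also signal through Ncam1. In the mouse testis GDNF from Sertoli cells maintains spermatogonial stem cells, and in the embryonic kidney it drives branching of the ureteric bud. The title of the series sets the question here as the development of primordial follicles, the resting follicles of a newborn ovary, under GDNF.

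Transcripts of the family had low to middling signals on all 4 arrays and none differed between the groups past the threshold. In the brightest probe set of each gene, the co-receptors, Ret and Nrtn had signals between 25 and 71.8. The groups overlapped for Gfra1, Gfra4, Ret and Nrtn, and did not for Gfra2 and Gfra3, which were lower in both GDNF samples. Gdnf itself was the dimmest gene in the control samples and had its 2 highest signals in the GDNF samples, still below the level at which probe sets were tested. Probe sets were tested where their mean over the 4 samples, on the scale log2(signal + 1), reached the 40th percentile, a signal of about 21.4. Of the 14 probe sets, 7 passed this filter, for 6 genes. Gdnf and Ncam1 had no probe set above it. In limma's comparison of GDNF with control, 0 of the 7 had a Benjamini-Hochberg adjusted p under 0.05, and the lowest adjusted p was 0.999. Over all 18625 probe sets tested, 0 were called, a background of 0%. At an unadjusted p under 0.05, 508 probe sets passed (2.73%), 0 of the 7 family probe sets among them. Of the 14 probe sets, 4 had groups that did not overlap, 2 higher and 2 lower with GDNF, against 30.4% of all probe sets. With 2 samples against 2, an exact permutation test of a single probe set cannot give a two-sided p below 0.333.

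**Figure D1:**
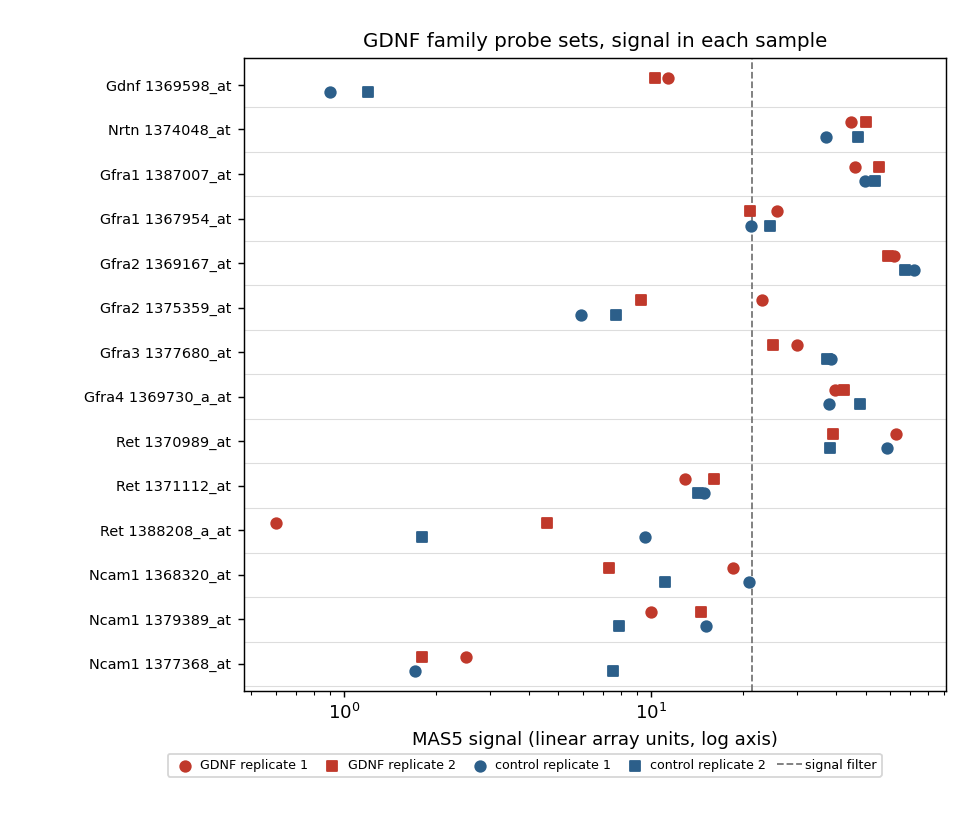
MAS5 signal of the 14 probe sets in each sample on a log axis, with GDNF samples in red above control samples in blue, circles for replicate 1, squares for replicate 2 and the signal filter as a dashed line. The groups overlap in 10 of the 14 probe sets, and Gdnf stands at 11.4 and 10.3 in GDNF samples against 0.9 and 1.2 in control samples.

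Oocyte and granulosa cell markers, which define a whole ovary, had middling to high signals. Of 12 oocyte markers 6 had a probe set of their own, among them Gdf9 and Zp3. Their median percentile among all probe sets was 85.6, and single genes ran from 59.9 (Bmp15) to 99.1. Of 10 granulosa cell markers 9 had a probe set, among them Amh and Foxl2. Their median percentile was 92.7, and single genes ran from 57.7 (Hsd17b1) to 96.2. The summed oocyte signal was 5249 and 6654 in the GDNF samples and 3983 and 4967 in the control samples, and that of the granulosa list was 4704 and 4344 against 4480 and 4009. All 6 oocyte markers had higher means with GDNF (median log2 fold change 0.475). Of the 9 granulosa markers 6 were higher and 3 lower (median 0.18). Amh, Foxl2, Inha and Nr5a2 were higher in both GDNF samples, and Kitlg and Amhr2 lower in both. None of either list passed the threshold. Groups did not overlap for 30% of all probe sets tested. In whole ovaries, a change in the number of cells of a type and a change in the RNA of each cell cannot be told apart. The median signal of an array lay between 36.7 and 41.1, and log2 signals of any pair of arrays correlated at r = 0.971 to 0.986 across probe sets, which are not independent replicates. The GDNF samples correlated with each other at 0.971, the low end of this range, and the control samples at 0.984. The most alike pair thus crossed the groups. The authors' scaling sets all arrays to the same trimmed mean, so a change in total RNA is not visible.

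The ligand Gdnf was measured by the probe set 1369598_at. Its signal was 11.4 and 10.3 in the GDNF samples and 0.9 and 1.2 in the control samples. Both GDNF samples lay above both control samples, and the 2 samples of each group were close to each other. Among all probe sets of its array, Gdnf ranked at the 26.5th and 27.8th percentile in the GDNF samples and at the 3.24th and 5.64th in the control samples. The difference was 2.53 on the log2(signal + 1) scale, and 0.65 with a pseudocount of 16, which damps dim signals. Since Gdnf lay below the filter it was not tested in the comparison above. In a fit without the filter it had a standard error of 0.56, a 95% interval of 1.22 to 3.85, an unadjusted p of 0.0027 and a limma adjusted p of 0.999. Of the 12417 probe sets below the filter, 14 differed by at least as much in either direction, Gdnf included (0.113%), and 9 of these were higher with GDNF. An RNA array reads transcripts and not protein, and the cause of the difference in Gdnf signal was not tested. Detection calls, which say whether a MAS5 signal stands above its mismatch background, were not used here, so Gdnf is given as dim in both groups.

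Nrtn encodes neurturin, the ligand that prefers Gfra2. Its probe set 1374048_at had a signal of 44.8 and 50.3 in the GDNF samples and 37.2 and 47.4 in the control samples. The control samples spanned more than the distance between the group means, and GDNF replicate 1 lay between them. The log2 fold change was 0.17 (SE 0.23, 95% interval -0.38 to 0.72), and it came to 0.0021 without control replicate 1. In linear terms the interval reaches from 0.771 to 1.65 times the control level.

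Gfra1, the co-receptor that binds GDNF, was measured by a pair of probe sets. In the brighter, 1387007_at, the signal was 46.3 and 55.1 in the GDNF samples and 49.9 and 53.8 in the control samples. The GDNF samples enclosed the control samples, so the groups overlapped fully. The log2 fold change was -0.04 (SE 0.21, 95% interval -0.53 to 0.46), which bounds the level with GDNF between 0.692 and 1.38 times that of control. The dimmer, 1367954_at, sat near the filter at 25.7 and 21 in the GDNF samples and 21.2 and 24.5 in the control samples, with a log2 fold change of 0.03 (SE 0.29). Both directions depended on single samples. The brighter probe set turned to 0.09 without GDNF replicate 1 and to 0.02 without control replicate 2. The dimmer turned to -0.11 without GDNF replicate 1 and to -0.07 without control replicate 1.

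Ret, the kinase shared by all ligands of the family, had 3 probe sets. The brightest, 1370989_at, had a signal of 62.7 and 39.2 in the GDNF samples and 58.7 and 38.3 in the control samples. Replicate 1 was the high sample and replicate 2 the low one in both groups, by a ratio of 1.6 in the GDNF samples and 1.53 in the control samples. The log2 fold change between the groups was 0.06 (SE 0.31, 95% interval -0.67 to 0.80), far less than the difference between replicates of 0.66 in the GDNF samples and 0.60 in the control samples. It turned to -0.27 without GDNF replicate 1 and to -0.24 without control replicate 2. Without either of the other samples it was 0.40 at most. Of the 7 tested family probe sets this one had the largest difference between replicates in both groups, and the median replicate difference of the 3788 probe sets with a mean signal from 40 to 80 was 0.265 between GDNF samples and 0.197 between control samples.

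The other Ret probe sets were dimmer, and the platform annotation gives both the same sequence accession. The first, 1371112_at, had 12.9 and 16.1 in the GDNF samples and 14.9 and 14.2 in the control samples, with a difference of -0.01. The second, 1388208_a_at, had 0.6 and 4.6 in the GDNF samples and 9.6 and 1.8 in the control samples. Its signals differed up to 16-fold between samples with overlapping groups. Neither showed replicate 1 above replicate 2 in both groups, as the brightest Ret probe set did.

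**Figure D2:**
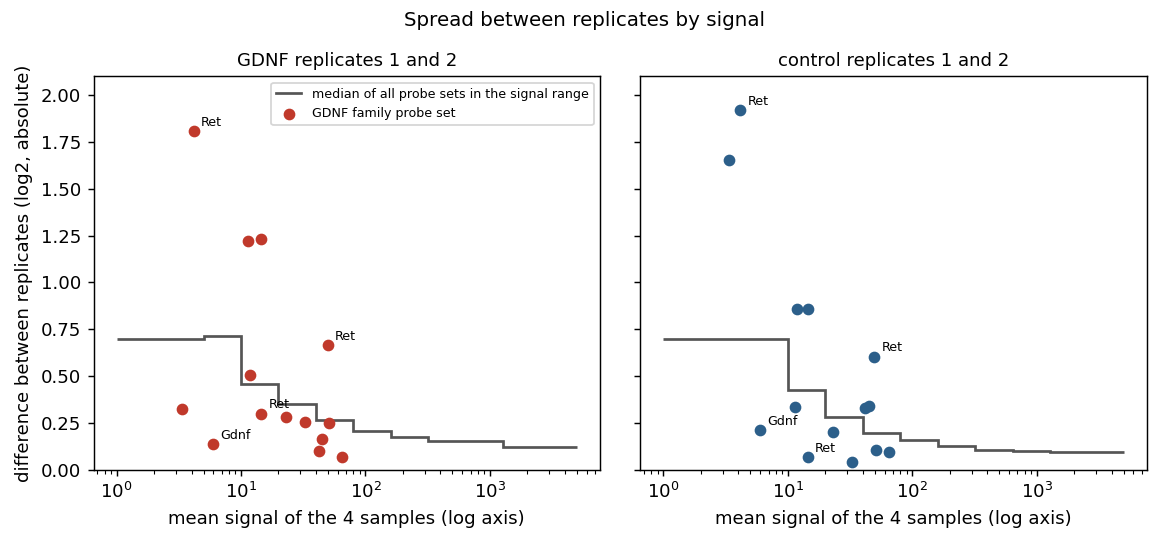
Absolute log2 difference between replicates 1 and 2 of the GDNF samples (left) and the control samples (right) against the mean signal of the 4 samples on a log axis, for the 14 probe sets (points) and as the median of all probe sets in each signal range (line). Of the 14 points, 5 lie above the line in the GDNF samples and 7 in the control samples, and the brightest Ret probe set is above it in both.

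Gfra2, the co-receptor of neurturin, ranked highest of the co-receptors. Its probe set 1369167_at had 62.1 and 59.2 in the GDNF samples and 71.8 and 67.2 in the control samples. Both GDNF samples lay below both control samples. The log2 fold change was -0.19 (SE 0.18, 95% interval -0.62 to 0.24, limma adjusted p = 0.999). With each sample left out in turn it ran from -0.24 to -0.15. A dim probe set of Gfra2, 1375359_at, went the opposite way. It had 23.0 and 9.3 in the GDNF samples and 5.9 and 7.7 in the control samples, a difference of 1.02, and of 0.41 without GDNF replicate 1. It lay below the filter and was not tested.

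Gfra3, the co-receptor of artemin, had the largest log2 difference among the 7 tested family probe sets. Its signal was 30 and 25 in the GDNF samples and 38.6 and 37.5 in the control samples. The groups did not overlap, and the control samples were close together. The mean was 27.5 ± 3.54 in the GDNF samples and 38.05 ± 0.778 in the control samples (SD, n = 2 each). Its log2 fold change was -0.46 (SE 0.25, 95% interval -1.05 to 0.13, limma adjusted p = 0.999). It stayed between -0.59 and -0.33 with each sample left out in turn.

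Gfra3 is known as a receptor of sensory and sympathetic neurons, so markers of nerve cells are given beside it. Of 12 neuron markers 11 had a probe set, and 4 were bright enough to test, 1 higher and 3 lower with GDNF, none past the threshold. The summed neuron signal was 1891 and 1722 in the GDNF samples and 2208 and 1900 in the control samples. Most of it was Prph, the intermediate filament peripherin, at 1706 and 1501 in the GDNF samples and 2001 and 1676 in the control samples. Nefm was at 56.2 and 103.9 in the GDNF samples and 69.8 and 100.6 in the control samples. Elavl4 stood at 55.2 and 45.7 against 59.3 and 45.5. Th, the 1 tested marker with a higher mean, had 23.2 and 32.4 against 18.4 and 22.8, without overlap. Among neuron markers below the filter, Snap25 and Chga, which mark synapses and secretory granules, were near 0, at 0.5 to 5.3 over all samples. Stmn2, at 7 and 2.8 against 2.6 and 1, was higher in both GDNF samples. Nefl and Dbh were lower in both. For Schwann cells and glia, 7 of 10 markers had a probe set, with a summed signal of 178 and 141 in the GDNF samples and 176 and 164 in the control samples, and the 2 tested, S100b and Mbp, both had lower means with GDNF, neither past the threshold. Among the glial markers below the filter, the defining factor Sox10 was at 9.6 and 2.8 in the GDNF samples and 3.6 and 2.5 in the control samples. Gfap, at 1.7 and 3.3 in the GDNF samples and 12.4 and 5.6 in the control samples, and Foxd3, at 1 and 0.5 against 1.3 and 2.8, were lower in both GDNF samples. Over all probe sets, 16.6% were lower and 13.8% higher in both GDNF samples. The 5 surface epithelium and mesothelium markers, all tested, all had lower means with GDNF, none past the threshold, with a summed signal of 4923 and 4737 against 6263 and 5365 in control. Leukocyte markers summed to 811 and 610 in the GDNF samples and 755 and 645 in the control samples. Most of this sum was Cd14, at 589.8 and 406.8 in the GDNF samples and 485.3 and 417 in the control samples. Among the 5 leukocyte markers above the filter, the mean of Cd14 alone was up with GDNF and 4 were down, none past the threshold. Their median log2 fold change was -0.26, and Cd68 and Csf1r were lower in both GDNF samples. Endothelial markers summed to 1187 and 1117 in the GDNF samples and 1274 and 1284 in the control samples. The 4 tested, among them Kdr, all had lower means with GDNF (median log2 fold change -0.118), none past the threshold. Theca and steroidogenic cell markers summed to 688 and 632 in the GDNF samples and 539 and 472 in the control samples. Of the 4 tested, 3 were higher with GDNF and 1 lower, none past the threshold. The part of these cell types in the Gfra2 and Gfra3 values was not tested.

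Gfra4, the co-receptor of persephin, had a signal of 39.7 and 42.6 in the GDNF samples and 37.9 and 47.9 in the control samples. The control samples enclosed the GDNF samples. The log2 fold change was -0.05 (SE 0.23, 95% interval -0.60 to 0.50) and turned to 0.11 without control replicate 2. The probe set, 1369730_a_at, is of a class that Affymetrix marks as reading several transcripts of 1 gene, so the isoforms of Gfra4 are not resolved.

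Ncam1 encodes the neural cell adhesion molecule, an alternative receptor for GDNF. All 3 of its probe sets lay below the filter. The brightest, 1368320_at, had 18.5 and 7.3 in the GDNF samples and 20.9 and 11.1 in the control samples. As with Ret, replicate 1 was above replicate 2 in both groups, by a ratio of 2.53 in the GDNF samples and 1.88 in the control samples. The difference between the groups was -0.36, and 0.26 without GDNF replicate 2. The probe set 1379389_at had 10 and 14.6 in the GDNF samples and 15.1 and 7.9 in the control samples. The third, 1377368_at, had 2.5 and 1.8 in the GDNF samples and 1.7 and 7.5 in the control samples. The groups overlapped in all 3, and the direction turned in each when 1 sample was left out (for 1379389_at to -0.30 without control replicate 2, and for 1377368_at to 0.21 without control replicate 2).

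**Figure D3:**
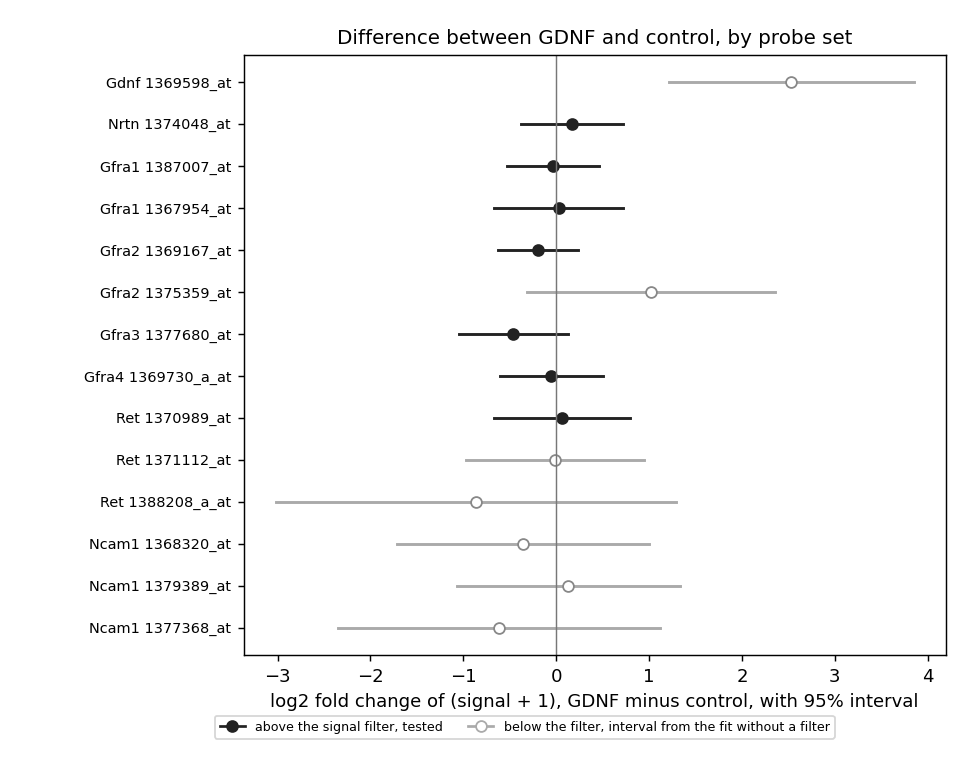
Log2 fold change of each probe set, GDNF minus control, with its 95% interval from limma, filled where the probe set was tested and open where it lay below the signal filter (interval from the fit without a filter). The intervals of all 7 tested probe sets include 0, and among the open points only that of Gdnf, from 1.22 to 3.85, does not.

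The order of the levels is a description only, since different probe sets bind with different strength. By the median percentile of the brightest probe set over the 4 arrays, Gfra2 came first (58.9), followed by Gfra1 (54.7), Ret (53.9), Nrtn (52.4), Gfra4 (50.9), Gfra3 (46.9), Ncam1 (31.9) and Gdnf (16.05). From Gfra1 to Gfra3 the ranges of neighbours in this order overlapped, as did those of Ncam1 and Gdnf. Ret alone ran from the 49.9th to the 57.5th percentile, and Nrtn from the 48.7th to the 55.3rd. The percentiles of Ret were 57.5 and 51.1 in the GDNF samples and 56.8 and 49.9 in the control samples. Gfra2 ran from 57.4 to 60.4 and was the 1 gene to pass the 60th percentile on any array. Ncam1 ran from the 21.6th to the 38.3rd percentile, below every sample of the genes ranked above it.

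The genes whose pattern over the 4 samples was most like that of Gfra1 and Ret were sought among tested probe sets with 1 symbol, by the root mean square difference of log2 signals centred on their own means. For Gfra1 these were Ensa (0.0021), Oaz2 (0.0059) and Ppp1r10 (0.0070). A flat pattern is common: 3218 of 14245 probe sets (22.6%) lay within 0.1 of Gfra1. For Ret they were Nr4a1 (0.0194), Ccl7 (0.0212) and Stat3 (0.0275), and 87 of 14246 probe sets (0.611%) lay within 0.1. Nr4a1 had 44.4 and 28.4 in the GDNF samples and 43.1 and 27.8 in the control samples, and Ccl7 had 220 and 138 against 211 and 133. In each, replicate 1 was the high sample of both groups, which follows from their choice by likeness to Ret. These likenesses rest on 4 samples.

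Other ligands and receptors linked to the family were dim. For Artn and Gfral no probe set carried the gene's symbol by itself, and they were not analysed here. Pspn, the ligand persephin, had 11.9 and 9.4 in the GDNF samples and 19 and 3 in the control samples. Gdf15, a stress-induced ligand whose receptor Gfral also signals through Ret, had 10.7 and 8.1 in the GDNF samples and 9.6 and 3.3 in the control samples. Gas1, a membrane protein related to the co-receptors, had 15.6 and 1.8 in the GDNF samples and 3.1 and 11.8 in the control samples. All 3 overlapped between the groups and lay below the filter.

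Sdc3, a heparan sulfate proteoglycan that binds GDNF, was the 1 member of that list above the filter. Its brightest probe set had 24.6 and 21.5 in the GDNF samples and 39.1 and 30.1 in the control samples, without overlap. The log2 fold change was -0.56 (SE 0.28, limma adjusted p = 0.999). The other Sdc3 probe sets, both below the filter, had higher means with GDNF, by 1.20 and 1.17 on the log2 scale. The first, 1368580_at, had 16.2 and 7.8 in the GDNF samples and 6.7 and 2.7 in the control samples, also without overlap. In the second, 1368581_at, the groups overlapped.

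Proteins that carry the signal of Ret and Ncam1 inside the cell had means on both sides of control. Of 25 such genes 23 had a probe set and 17 were tested, 7 with a higher and 10 with a lower mean in GDNF, and none passed the threshold. Their median log2 fold change was -0.05, against -0.01 over all probe sets tested. Groups did not overlap for 7 of the 17, against 30% of the probe sets tested. Pik3r1, a regulatory subunit of PI3-kinase, was the highest (0.35, SE 0.37), with 60 and 36.1 in the GDNF samples and 26.4 and 50.1 in the control samples, and turned to -0.10 without control replicate 1 and to -0.01 without GDNF replicate 1. Shc1, the adapter that docks on Ret, was the lowest (-0.21, SE 0.11), with 456 and 489 in the GDNF samples and 550 and 543 in the control samples.

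Genes known to respond to GDNF in mouse spermatogonia or the mouse kidney bud had means on both sides of control. Of 17 such genes 16 had a probe set and 13 were tested, 7 with a higher and 6 with a lower mean in GDNF, with a median log2 fold change of 0.07, and none passed the threshold. Myb, a transcription factor of dividing progenitor cells, was the highest (0.47, SE 0.25), at 85.1 and 117 in the GDNF samples and 59.2 and 87.1 in the control samples, with overlap. Spry2, which damps signalling from receptor tyrosine kinases, was the lowest (-0.54, SE 0.15), at 90.6 and 95.3 in the GDNF samples and 131 and 141 in the control samples. Spry2 and Etv4 were the 2 of the list's 13 tested genes with an unadjusted limma p under 0.05, against 2.73% of all probe sets tested. The list was chosen with earlier results of these data known, so this count is a description and no test of the list. Etv4, an ETS transcription factor named after its values were seen, had 122.5 and 121 in the GDNF samples and 168 and 168 in the control samples (-0.46, SE 0.14). The limma adjusted p was 0.999 for both.

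**Figure D4:**
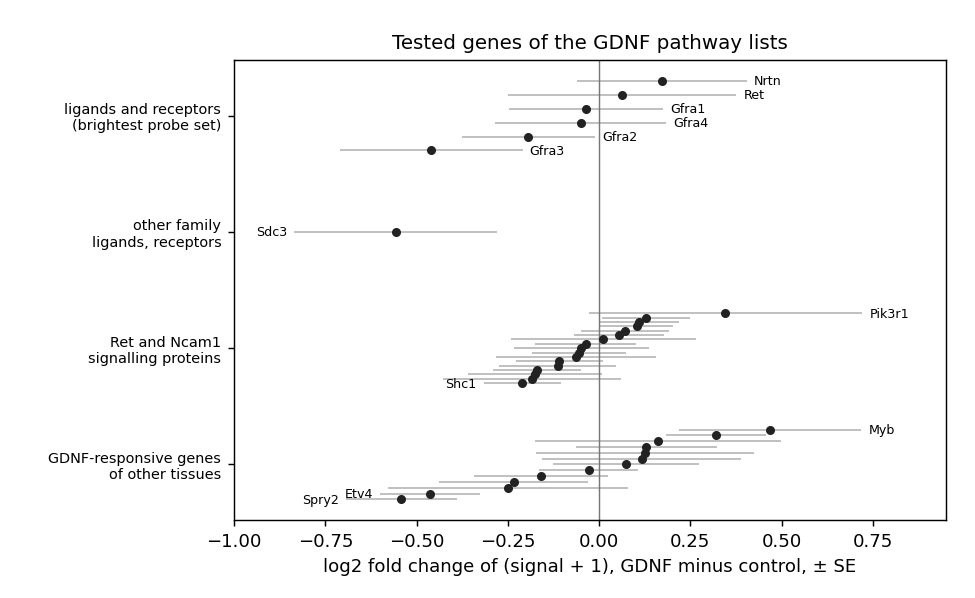
Log2 fold change of the tested genes in each list, GDNF minus control, with limma's standard error, for the brightest probe set of each gene. The 4 lists spread to both sides of 0 or hold 1 gene, and Spry2 (-0.54), Sdc3 (-0.56) and Myb (0.47) are the farthest from it.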

How the data were processed

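The authors deposited 1 intensity per probe set and array on a linear scale, the MAS5 signal according to the submitters' processing notes, with no version named. Genome build and detection calls are not given in the sources used here. Trimmed of 2% at each end, the mean signal was 125.03 to 125.04 on all arrays. Of 31099 probe sets, 57 array controls were left out. Symbols came from the platform annotation: 20826 probe sets had 1 symbol, 436 several and 9780 none. All 8 family genes matched the RefSeq gene table of assembly GRCr8 by Entrez identifier, with 0 symbols changed.

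After a log2 transform of signal + 1, limma 3.58.1 (R 4.3.3) compared the groups over the 18625 probe sets whose mean reached the 40th percentile (linear model with trended empirical Bayes variances, group as the only term, two-sided, Benjamini-Hochberg over all probe sets tested, threshold 0.05). Fold changes on this scale understate the change of dim genes. ± gives the SD of 2 samples and limits are limma's 95% intervals. The number of arrays limits the precision. The fit was tested on simulated data.

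Named genes were all family probe sets, all other ligands and receptors, the highest and lowest tested gene of each further list, and the 3 genes most like Gfra1 and Ret. Etv4 was added after its values were seen, and cell type markers are named as checks. The members and lists were chosen with earlier results of these data known. The alternatives changed the pseudocount (16), the filter (none, or the 60th percentile), the normalization (quantile, or centred medians), the variance trend (none) and the design (the replicate number as a block), or left out 1 sample.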

Additional observations from a re-analysis of the deposited data

How the results depend on the processing

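No family probe set passed the threshold under any of the 11 alternatives, and at the 60th percentile filter none was left to test. Without the variance trend, 1 of the 7 tested family probe sets had an unadjusted limma p under 0.05, against 0 in the main fit. The share of all probe sets under that setting is not given here. The replicate numbers have no stated meaning. Deviations of same-numbered samples correlated at r = 0.323 across probe sets, over only 2 pairs. With the replicate number as a block, 8 of 18625 probe sets passed (0.043%), against 0 without it, and 0 of the family (lowest limma adjusted p 0.808). Of 70 alternative values for the tested family probe sets, 63 kept their direction and 7 turned, all on leaving out a sample. Dropping the filter, the variance trend or adding the block leaves the fold change itself as it was, so those values could not turn. With each sample left out, the Gfra1 probe set 1387007_at ran from -0.16 to 0.087, the Gfra1 probe set 1367954_at from -0.11 to 0.17, Ret from -0.27 to 0.40, Gfra4 from -0.22 to 0.11 and Pik3r1 from -0.10 to 0.80. The count of family probe sets without overlap was 4 under both normalizations and 8 to 10 with 1 sample left out, where fewer samples make overlap rarer. With 1 sample left in a group, that sample is assumed to vary like the others. The difference of Gdnf was 2.43 to 2.64 with each sample left out and 0.65 with a pseudocount of 16. Low signal over background limits Gdnf, Ncam1 and the dim Ret and Gfra2 probe sets.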
